A study of Bos taurus with 6 samples.

Results

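Proteins that build the spliceosome's small nuclear ribonucleoproteins (snRNPs) were followed at the mRNA level through oocyte maturation in cattle. The members are all genes of the deposited expression table whose symbol begins with SNRP, SF3A, SF3B or PRPF, is LSM followed by a digit (LSM14A and LSM14B left out), or is U2AF1 or U2AF2. They came to 55 of 20707 genes and carried 46 symbols, of which 5 stood on more than 1 gene (SF3B4, SNRPD1, SNRPE, SNRPG and SNRPN). Where genes share a symbol, the one with the highest mean level stands for it, and the 9 others are called copies. The symbols are human ortholog names, and all 46 were matched to a cattle gene of the RefSeq table of assembly ARS-UCD2.0, 45 by symbol and SF3B14 as an older name of SF3B6.

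The samples are single Bos taurus oocytes from abattoir ovaries, with no treatment or genetic change named. GV oocytes, arrested in prophase with an intact germinal vesicle, were taken when follicles were aspirated, and MII oocytes reached the second metaphase during 24 hours of maturation in vitro. Breed and age are not given, and neither is the number of animals behind the oocytes. The p-values therefore reflect library-to-library spread, which may be technical. There were 3 libraries per stage (GV14, GV14c and GV15 against MII14c, MII15 and MII15c), and the names GV14c and MII15c match no sample title, so these 2 were placed by their stage prefix. The sample titles GV15c and MII14 in turn match no library. Whether they stand for GV14c and MII15c is not stated. Whether a name ending in c marks a further oocyte is not stated, so n = 3 counts libraries. Levels are RPKM, reads per kilobase of gene model, scaled to the mapped reads of each library. The SMARTer Ultralow kit used for cDNA primes on poly(A) tails, so a change in transcript number and a change in tail capture cannot be told apart. Adapter was diluted 1 in 30 for GV14, 1 in 10 for GV15 and 1 in 50 for MII14c and MII15, so among the titled libraries dilution and stage cannot be told apart either. For the samples titled GV15c and MII14 the adapter dilution was 1 in 10 and 1 in 30.

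The depth that low values implied was 20.5 to 30.3 M mapped reads in GV and 21.3 to 32.3 M in MII, so that 1 RPKM on a 2 kb model is 41.1 to 64.6 reads. All 14 oocyte markers examined were above the level tested, and their summed level was 17485 to 22068 RPKM in GV and 19049 to 31042 RPKM in MII. The largest part came from BTG4, with means of 11046 RPKM in GV and 20428 RPKM in MII. By the test given below, 9 of the 14 were lower in MII and 2 higher, with a median log2 change of -1.48. Their shares were 64.3% and 14.3%, against 26.9% and 13.4% of all tested genes. Of 17 cumulus and granulosa markers in the table, 9 stayed under 1 RPKM in every library, among them AMH, FSHR and INHA. Of these 9, PTX3, HSD17B1 and NR5A1 were listed at 0 throughout. INHBA, FST and VIM peaked in GV15, at 3.61, 1.95 and 1.47 RPKM. HSD3B1 and GATM peaked in MII15, at 2.02 and 1.04 RPKM, and GREM1 was at 1.06 to 2.86 RPKM over all libraries. The markers' summed level was 90.2 to 159 RPKM in GV and 98.1 to 100.3 RPKM in MII, mostly from STAR (lower in MII) and HAS2 (higher in MII).

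Splicing is carried out mainly by the snRNPs U1, U2, U4, U5 and U6, each named after the small RNA it holds. In all but U6 a ring of Sm proteins encircles that RNA, and it is assembled in the cytoplasm from SNRPD1 with SNRPD2, SNRPD3 with SNRPB, and SNRPE with SNRPF and SNRPG. Related LSm proteins form a similar ring on U6, and a ring that has LSM1 in place of LSM8 acts in the cytoplasm in mRNA decapping. SF3A and SF3B belong to the U2 snRNP and help it bind the branch point, and the PRPF proteins belong mainly to the U4/U6.U5 tri-snRNP and the later complexes. A fully grown oocyte is transcriptionally silent, so it relies on stored mRNA.

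Between GV and MII the members moved in both directions, with the steepest falls among short proteins. Of the 55 genes, 46 averaged 1 RPKM or more over the 6 libraries and were tested. Of these 46, 12 were lower in MII (26.1% of them), 5 were higher (10.9%) and 29 did not pass (limma on log2(RPKM + 1), Benjamini-Hochberg adjusted p under 0.05 over all genes tested). Among all 8671 tested genes, 26.9% were called lower and 13.4% higher, 40.3% in either direction, so the members' shares lay near the background. The median log2 change, MII minus GV, was -0.24 for the members and -0.16 for all tested genes. Quantile normalization turned the split among members to 11 lower and 8 higher, and it moved the median of all genes to 0.22, against 0.00 with median-ratio and -0.07 with TPM scaling. The count of rises depended on the processing: there were 13 with library weights, there was 1 without GV14 and 1 without GV15, and there were 2 without MII15c and 2 without both libraries that match no title, where the falls numbered 10. The values by role follow.

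**Figure D1:**
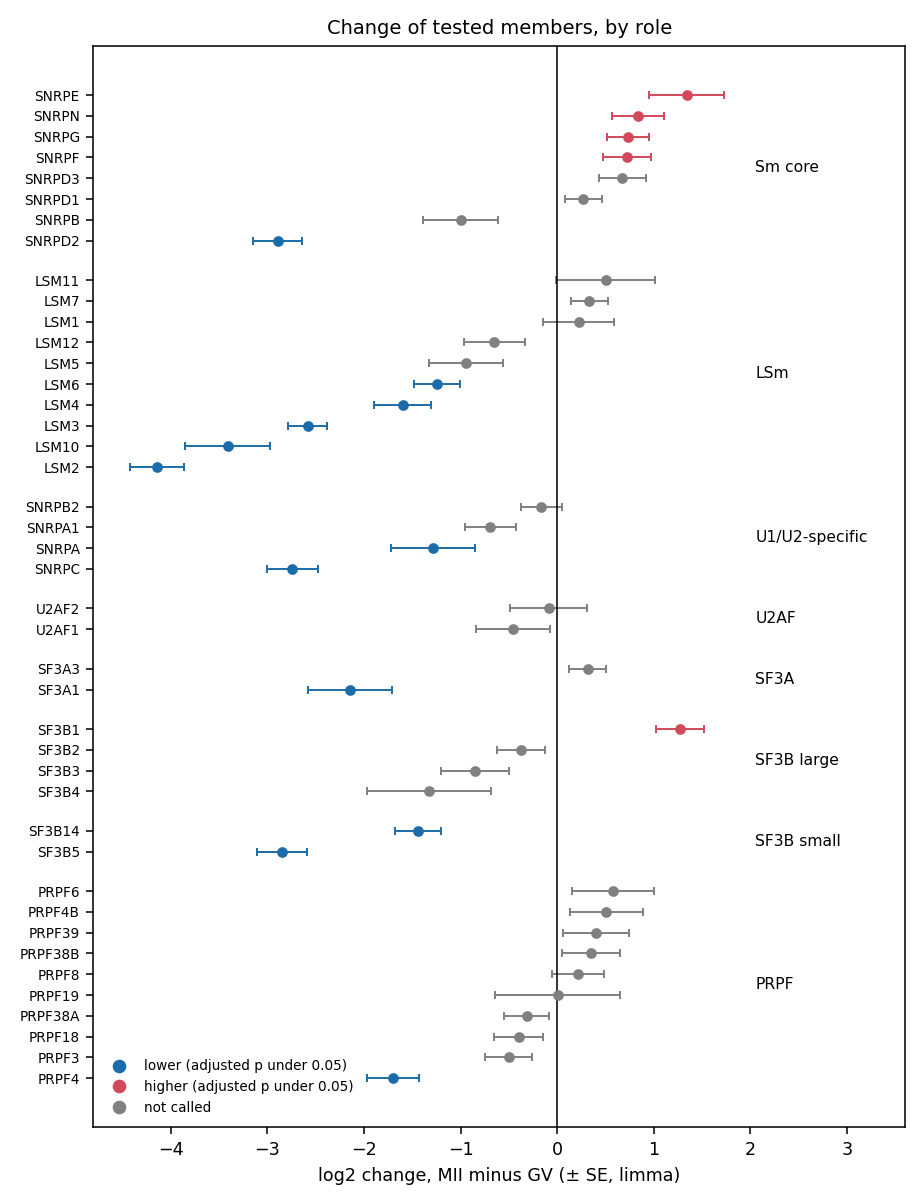
Log2 change from GV to MII of 42 of the 43 tested symbols (x axis; points are limma estimates on log2(RPKM + 1), bars are ± SE), grouped by role, with 1 gene per symbol; colour marks genes past the threshold. LSM2 lies farthest to the left at -4.14, and the 5 rises are SNRPE, SNRPN, SNRPG, SNRPF and SF3B1.

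The Sm ring did not move as a unit: SNRPD2 fell steeply, while SNRPE, SNRPF and SNRPG rose. SNRPD2 stood at 219, 286 and 237 RPKM in GV14, GV14c and GV15 and at 32.4, 43.2 and 23.7 RPKM in MII14c, MII15 and MII15c. Its stages lay far apart, with a mean 7.46 times higher in GV (log2 change of -2.89 ± 0.25, SE; limma adjusted p = 7.13e-05), and the call held under all 18 processing alternatives. Its binding partner SNRPD1 was at 99.3, 125 and 113 RPKM in GV and 135, 134 and 137 RPKM in MII. Every MII library of SNRPD1 lay above every GV library, yet the change did not pass (0.27 ± 0.19; limma adjusted p = 0.292). The ratio of SNRPD2 to SNRPD1 was therefore 2.10 to 2.28 in GV and 0.173 to 0.323 in MII, a pair whose order of levels was inverted in each library (a description, chosen after the values were seen).

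The 3 proteins of the second subcomplex were higher in MII, from very different levels. SNRPF was at 364, 592 and 431 RPKM in GV and 607, 901 and 763 RPKM in MII (log2 change of 0.72 ± 0.25, SE; limma adjusted p = 0.0435). SNRPG was at 383, 515 and 493 RPKM in GV and 655, 910.2 and 745 RPKM in MII (0.73 ± 0.22; limma adjusted p = 0.0252). Both were the most abundant members in either stage, and their stages did not overlap. SNRPE was at 19.7, 40.1 and 14.7 RPKM in GV and 46.6, 90.2 and 48.7 RPKM in MII (1.34 ± 0.39; limma adjusted p = 0.0241). These 3 calls were close to the threshold. The adjusted p of SNRPF was 0.15 without GV14, 0.113 without GV15, 0.106 without MII15, 0.126 without MII15c and 0.0722 with the replicate number as a block. That of SNRPG was 0.0935 without GV14, 0.0526 without GV15, 0.06 without MII15 and 0.0785 without MII15c. That of SNRPE was 0.0792, 0.0784 and 0.0641 without GV14, GV15 and MII15. All 3 calls were also lost with no filter on low genes (0.11, 0.0677 and 0.072 for SNRPF, SNRPG and SNRPE). SNRPF and SNRPG further lost their calls without the mean-variance trend and without both libraries that match no title. The highest limma adjusted p of SNRPG over its alternatives was 0.104.

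The third pair of the ring, SNRPD3 and SNRPB, did not pass the test in either direction. SNRPD3 was at 320.1, 507 and 347 RPKM in GV and 631, 500.1 and 729 RPKM in MII, with MII15 just below GV14c (log2 change of 0.68 ± 0.24, SE; limma adjusted p = 0.053). Among other settings it passed without GV14c (limma adjusted p = 0.0205), without MII15 (0.0329) and under median-ratio, quantile and TPM scaling (0.0235, 0.0259 and 0.0218). SNRPB was at 36.0, 40.6 and 15.8 RPKM in GV and 17.1, 9.55 and 15.9 RPKM in MII, where GV15 sat within the MII range. Its log2 change was -1.0 ± 0.38 (limma adjusted p = 0.0642, and 0.0134 without GV15 in a range of 0.00493 to 0.255 over its alternatives). SNRPN, which encodes SmN, a close relative of SNRPB that can take its place in the ring, was at 7.93, 6.35 and 6.36 RPKM in GV and 13.5, 10.8 and 14.98 RPKM in MII, with no overlap (0.83 ± 0.27; limma adjusted p = 0.0349). The adjusted p of SNRPN was 0.0666, 0.0802, 0.101, 0.0793 and 0.134 without GV14, GV14c, GV15, MII14c and MII15c in turn. Without both libraries that match no title its limma adjusted p was 0.24. SNRPN reached 0.156 to 0.403 of the level of SNRPB in GV and 0.792 to 1.13 in MII.

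**Figure D2:**
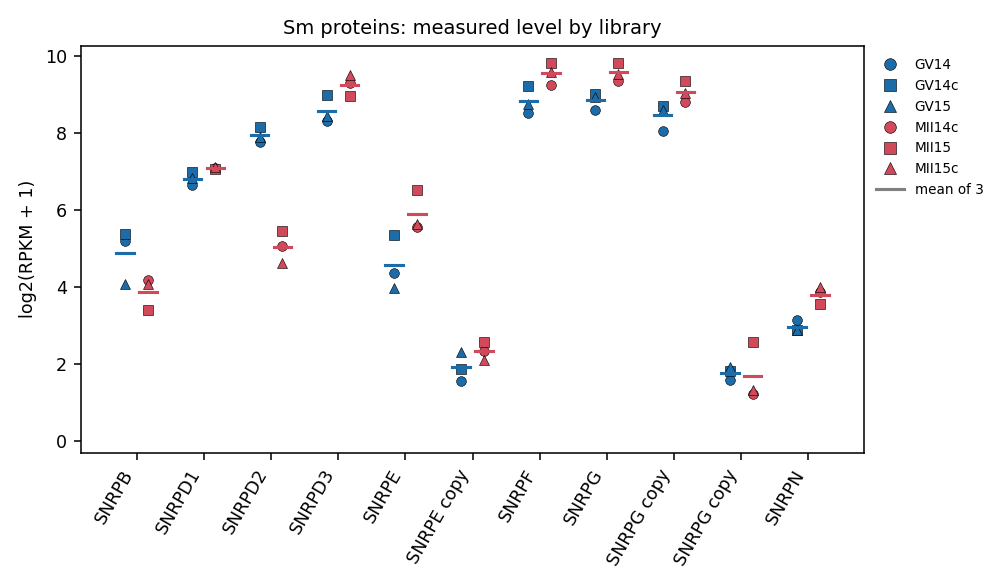
Level of the Sm genes (y axis, log2(RPKM + 1)) in each library, GV in blue and MII in red; points are single libraries and lines the mean of 3. SNRPD2 drops from 219 to 286 RPKM in GV to 23.7 to 43.2 RPKM in MII, while SNRPE, SNRPF, SNRPG and SNRPN sit higher in every MII library.

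Within the ring the span from the highest to the lowest mRNA was wider in MII, for the genes used here. The highest of the 7 ring mRNAs stood 14.8 to 33.5 times above the lowest in GV and 38.3 to 95.3 times in MII. The ranges came close, with GV15 at 33.5 and MII14c at 38.3. SNRPD2 held 13.6% to 15.2% of the summed RPKM of the 7 in GV and 0.963% to 1.67% in MII. SNRPG held 24.4% to 29.8% in GV and 30.3% to 35.2% in MII. RPKM is scaled to model length, but tail capture and the gene models of SNRPE and SNRPG also bear on these levels. The lowest of the 7 was SNRPE in every GV library and SNRPB in every MII library.

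The gene models behind SNRPE and SNRPG limit what those values stand for. All 3 SNRPG genes have a single coding exon in the authors' annotation, and both SNRPE genes have none and no spliced supporting read, so no model with several exons carries either symbol here. The SNRPG gene used above lies on chromosome 19 from 12231254 to 12231484 with 231 coding nt. Its copy on chromosome 6, from 16367635 to 16367865, has the same coding length and was at 265, 417 and 389 RPKM in GV and 446, 653 and 527 RPKM in MII. That copy also showed no overlap but did not pass (log2 change of 0.61 ± 0.24, SE; limma adjusted p = 0.0742; 0.0161 and 0.0244 under quantile and TPM scaling). The annotation gives 225 and 257 supporting reads for the pair, none of them spliced, and reads may be shared between such copies. The third SNRPG gene was at 1.33 to 4.95 RPKM. Of the SNRPE genes, the one used above lies on chromosome 11 from 38297998 to 38298497, and its copy was at 1.94 to 4.94 RPKM (0.43 ± 0.33; limma adjusted p = 0.327). A further gene, ENSBTAG00000030305, is named SNRPE in the annotation but has no symbol in the table and is no member (chosen after its values were seen). It was at 68.5, 144 and 87.0 RPKM in GV and 134, 155 and 123 RPKM in MII and did not pass (limma adjusted p = 0.175). SNRPD2 and SNRPF, by contrast, rest on 2 and 4 coding exons (chromosome 18 from 53681159 to 53682459, and chromosome 5 from 60556197 to 60563405), with 39 and 66 spliced supporting reads.

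Of 10 tested LSm genes 5 fell and none rose past the threshold, with a median log2 change of -1.10 over the 10. The share lower was 26.9% over all tested genes and 46.2% among those of up to 500 coding nt. LSM2 showed the steepest fall of any member. It was at 53.3, 65.3 and 47.3 RPKM in GV and 2.35, 1.48 and 2.80 RPKM in MII, a 25.0-fold difference of the means (log2 change of -4.14 ± 0.28, SE; limma adjusted p = 2.32e-05). LSM3, like LSM2 part of both the U6 and the decapping ring, was at 375, 451 and 522 RPKM in GV and 75.9, 75.3 and 69.5 RPKM in MII (-2.58 ± 0.20; limma adjusted p = 3.88e-05). It went from the most abundant LSm mRNA in GV to a level 6.10 times lower, and its MII libraries lay close together. LSM4 was at 9.83, 7.88 and 8.68 RPKM in GV and 2.02, 2.90 and 1.84 RPKM in MII (-1.6 ± 0.30; limma adjusted p = 0.00293). LSM6 was at 51.1, 64.6 and 58.4 RPKM in GV and 19.7, 30.4 and 22.3 RPKM in MII (-1.25 ± 0.24; limma adjusted p = 0.0036). Neither showed any overlap between stages, and the call of LSM6 was lost only without both libraries that match no title (limma adjusted p = 0.055 in a range of 5.37e-05 to 0.055 over its alternatives).

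LSM7 and LSM5, the remaining shared subunits of the 2 rings, did not pass. LSM7 was at 357, 402 and 374 RPKM in GV and 443, 549.9 and 442 RPKM in MII, with every MII library above every GV library and no call (log2 change of 0.33 ± 0.19, SE; limma adjusted p = 0.195). LSM7 thus became the most abundant LSm mRNA of MII. LSM5 was at 50.5, 101 and 33.5 RPKM in GV and 30.2, 21.6 and 35.3 RPKM in MII, where GV15 overlapped the MII range (-0.94 ± 0.38; limma adjusted p = 0.079, and 0.0257 without GV15 in a range of 0.00157 to 0.223 over its alternatives). As a ratio, LSM2 stood at 0.127 to 0.162 of the level of LSM7 in GV and at 0.0027 to 0.00634 in MII. Among LSM2 to LSM7 the highest exceeded the lowest 38.1 to 60.1 times in GV and 220 to 371 times in MII.

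The subunits that tell the 2 rings apart did not pass. LSM1, of the cytoplasmic ring, was at 34.8, 58.5 and 20.4 RPKM in GV and 39.6, 32.7 and 51.8 RPKM in MII (log2 change of 0.22 ± 0.37, SE; limma adjusted p = 0.661). LSM8 stands in no symbol of the table. A gene listed as NAA38, which the RefSeq table gives as a synonym of LSM8, is no member, was chosen after its values were seen, and was at 57.3, 89.5 and 70.3 RPKM in GV and 50.3, 58.6 and 50.6 RPKM in MII (-0.42 ± 0.23; limma adjusted p = 0.177). The U7 snRNP, which processes replication-dependent histone mRNA, carries LSM10 and LSM11 in its ring in place of SNRPD1 and SNRPD2. LSM10 was at 19.7, 22.6 and 21.0 RPKM in GV and 2.09 and 1.89 RPKM in MII14c and MII15c, and it was listed at 0 in MII15 (-3.41 ± 0.44; limma adjusted p = 0.000505). Its stages were widely separated and its call held under all 18 alternatives. LSM11 was at 0.91, 3.24 and 0.323 RPKM in GV and 4.34, 1.02 and 1.81 RPKM in MII, with overlap between stages (0.50 ± 0.51; limma adjusted p = 0.464). LSM12, an LSm-domain protein outside these rings, was at 14.7, 20.8 and 14.3 RPKM in GV and 11.8, 6.66 and 12.8 RPKM in MII and did not pass (-0.65 ± 0.31; limma adjusted p = 0.128).

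**Figure D3:**
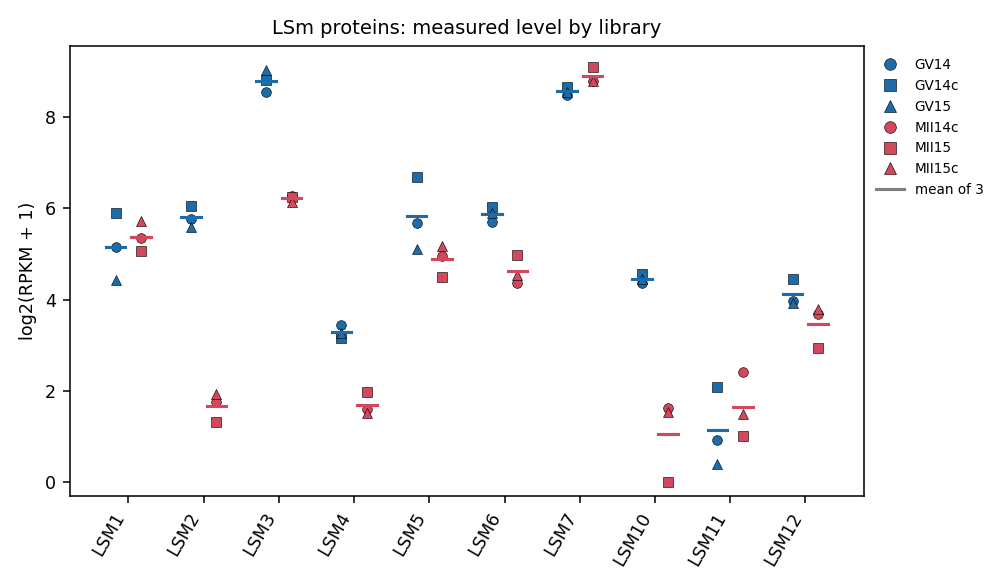
Level of the 10 LSm genes (y axis, log2(RPKM + 1)) in each library, GV in blue and MII in red; points are single libraries and lines the mean of 3. LSM2, LSM3, LSM4, LSM6 and LSM10 are lower in every MII library, whereas LSM7 is higher in every MII library without passing the test.

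Of the 4 members particular to U1 or U2, 2 passed, SNRPC and SNRPA, both of U1 and both lower. Among all tested genes 26.9% were lower, and 40.3% passed in either direction. SNRNP70, the U1 protein that is no member, did not pass (0.05 ± 0.30; limma adjusted p = 0.9; named after its values were seen). SNRPC, the U1 protein that stabilizes pairing with the 5′ splice site, was at 312, 449 and 412 RPKM in GV and 55.3, 78.1 and 42.8 RPKM in MII. It fell 6.66-fold on average (change of -2.74 ± 0.26 on the log2 scale, SE; limma adjusted p = 0.000105). SNRPA, which binds a stem-loop of U1 RNA, was scarce, at 3.13, 5.84 and 2.66 RPKM in GV and 1.98, 0.122 and 1.15 RPKM in MII (-1.28 ± 0.43; limma adjusted p = 0.0408). The call of SNRPA was lost under 10 of 17 alternatives, among them without GV14, GV14c, MII15 or MII15c (limma adjusted p = 0.0822, 0.12, 0.0951 and 0.0899), with the replicate block (0.066) and with quantile or TPM scaling (0.0818 and 0.0656). Of the U2 pair, SNRPA1 was at 96.3, 134 and 98.9 RPKM in GV and 78.4, 48.1 and 79.3 RPKM in MII, without overlap and without a call (-0.69 ± 0.26; limma adjusted p = 0.0608). SNRPB2, its partner on U2 RNA, was at 193, 296 and 268 RPKM in GV and 212, 236 and 218 RPKM in MII, so that the stages overlapped (-0.16 ± 0.22; limma adjusted p = 0.583). The U2 auxiliary factor, which reads the 3′ splice site, was low: U2AF1 was at 0.734 to 3.47 RPKM and U2AF2 at 2.51 to 8.42 RPKM over all libraries, and neither passed (limma adjusted p = 0.374 and 0.876).

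SF3B1, the large scaffold that holds the branch point helix, was the only large protein of the set to rise. It was at 31.3, 35.5 and 24.1 RPKM in GV and 77.7, 58.8 and 87.6 RPKM in MII, 2.47 times higher on average (log2 change of 1.27 ± 0.25, SE; limma adjusted p = 0.00371). The lowest MII library lay above the highest GV library, and this was the only rise among the members to hold under all 18 alternatives. SF3B5 and SF3B14, short subunits, fell instead, while PHF5A, a further short subunit outside the members and named after its values were seen, did not pass (-0.53 ± 0.31; limma adjusted p = 0.211). SF3B5 was at 182, 279 and 224 RPKM in GV and 37.8, 32.4 and 22.7 RPKM in MII (-2.85 ± 0.26; limma adjusted p = 7.91e-05), and its gene has 1 coding exon of 261 nt on chromosome 9 from 82549862 to 82550122. SF3B14, which contacts the branch point adenosine, was at 106, 106 and 160.1 RPKM in GV and 43.6, 51.1 and 38.9 RPKM in MII (-1.44 ± 0.24; limma adjusted p = 0.00173). SF3B5 went from 5.82 to 9.27 times the level of SF3B1 in GV to 0.260 to 0.551 times in MII, so the order of this pair was inverted as well.

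The other SF3B proteins did not pass. SF3B2 was at 20.5, 24.7 and 16.0 RPKM in GV and 15.6, 14.2 and 16.0 RPKM in MII (log2 change of -0.38 ± 0.25, SE; limma adjusted p = 0.265). SF3B3 was at 13.4, 16.2 and 13.9 RPKM in GV and 13.2, 4.90 and 6.43 RPKM in MII, where MII14c came close to GV14 (-0.85 ± 0.35; limma adjusted p = 0.0821, and 0.0163 without MII14c in a range of 0.00519 to 0.361 over its alternatives). SF3B4 was the least even: it was at 93.5, 106 and 18.9 RPKM in GV and 39.5, 11.2 and 24.8 RPKM in MII, so that GV15 stood with the MII libraries (-1.33 ± 0.64; limma adjusted p = 0.131, and 0.00939 without GV15 in a range of 0.00688 to 0.432 over its alternatives). Its 3 copies stayed between 0 and 1.06 RPKM and were not tested.

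In the SF3A trimer the subunits also parted. SF3A1 was at 14.7, 23.9 and 7.76 RPKM in GV and 3.12, 1.28 and 3.16 RPKM in MII, without overlap (log2 change of -2.15 ± 0.43, SE; limma adjusted p = 0.00454), and the call held under all 18 alternatives. SF3A3 was far more abundant, at 310.0, 336 and 377 RPKM in GV and 376, 465 and 434 RPKM in MII, where MII14c lay just under GV15 (0.32 ± 0.19; limma adjusted p = 0.223). SF3A2 was at 0.618, 2.12 and 0.585 RPKM in GV and 0.546, 0.209 and 0.477 RPKM in MII, below the level tested.

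**Figure D4:**
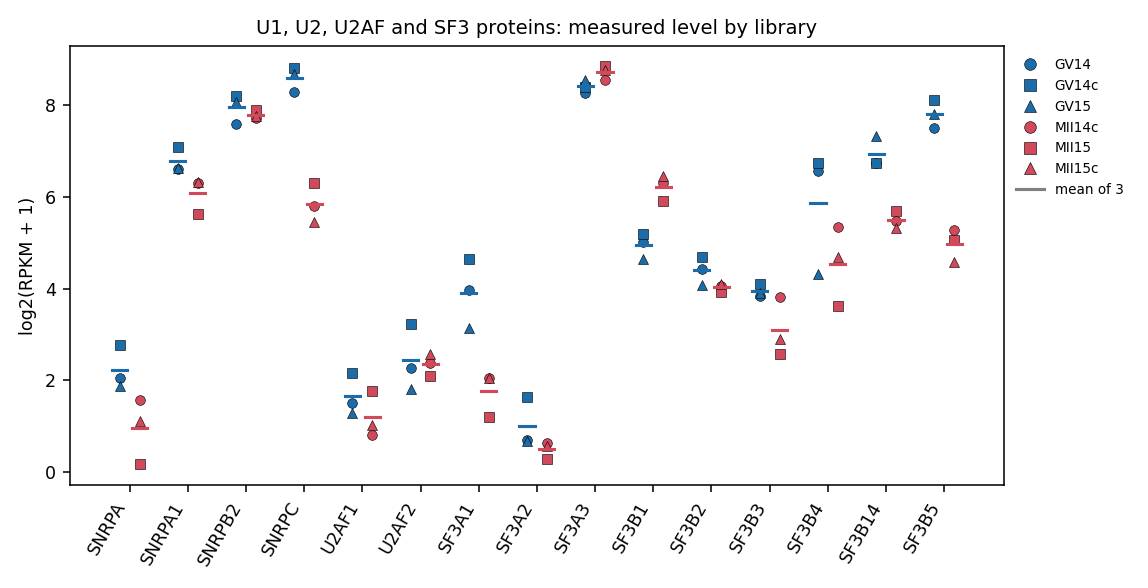
Level of the U1 and U2 proteins, U2AF and the SF3A and SF3B subunits (y axis, log2(RPKM + 1)) in each library, GV in blue and MII in red; points are single libraries and lines the mean of 3. SF3B1 is higher in every MII library, while SNRPC, SF3A1, SF3B5 and SF3B14 are lower in every MII library.

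Of 13 PRPF genes 11 were tested, and 1 of these, PRPF4, was lower (9.09%) and none higher. Over all tested genes 26.9% were lower and 13.4% higher. Among those of more than 1500 coding nt the shares were 13.7% and 16.8%. PRPF4, a WD-repeat protein of the U4/U6 snRNP, was at 114, 145 and 94.5 RPKM in GV and 47.3, 26.8 and 33.8 RPKM in MII, without overlap (log2 change of -1.70 ± 0.27, SE; limma adjusted p = 0.00139). PRPF3, which binds PRPF4 in that particle, was at 44.5, 59.7 and 53.3 RPKM in GV and 46.2, 29.7 and 35.3 RPKM in MII, where MII14c lay above GV14 (-0.50 ± 0.24; limma adjusted p = 0.129). PRPF4 thus stood at 1.77 to 2.57 times the level of PRPF3 in GV and 0.902 to 1.02 times in MII. PRPF8, the scaffold at the heart of the catalytic centre, was at 16.2, 23.1 and 17.9 RPKM in GV and 29.2, 20.5 and 17.9 RPKM in MII, and the stages overlapped (0.21 ± 0.27; limma adjusted p = 0.564). PRPF18, PRPF38A, PRPF38B, PRPF39, PRPF4B, PRPF6 and PRPF19 had log2 changes of -0.40, -0.32, 0.35, 0.40, 0.51, 0.58 and 0.00, none of which passed. PRPF6, the bridge between U5 and U4/U6, passed without MII15 (log2 change of 1.06; limma adjusted p = 0.0242 in a range of 0.00649 to 0.75 over its alternatives), and PRPF38B under quantile normalization (0.0442 in a range of 0.0316 to 0.712 over its alternatives). PRPF19, the ubiquitin ligase of the catalytic activation complex, ranged from 0.841 to 7.77 RPKM, with the lowest value of each stage in GV15 and MII15. PRPF31, at 0 to 1.76 RPKM, and PRPF40B, at 0.074 to 1.45 RPKM, were below the level tested.

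Set side by side, a small class (Sm and LSm, LSM12 included) and a large class (SF3A, SF3B1 to SF3B4 and PRPF) were counted by call. Coding models ran from 231 to 918 nt in the small class and from 939 to 7008 nt in the large class, so the classes adjoin in length. With 1 gene per symbol, 6 of 18 tested Sm and LSm genes were lower and 4 higher, against 2 lower and 1 higher of 17 tested SF3A, SF3B1 to SF3B4 and PRPF genes. The shares lower and higher were 33.3% and 22.2% in the small class and 11.8% and 5.88% in the large class. Over all tested genes they were 26.9% and 13.4%. The falls numbered more in the small class under every alternative, and the rises did not: without GV14 and without GV15 there were 0 in the small and 1 in the large class, without MII15 2 in each, and with no filter, without MII15c or without both libraries that match no title 1 in each. Members are not replicates, so the classes were not tested against each other. The medians lay closer than the calls, at -0.21 for the small and 0.00 for the large class, or -0.05 and 0.17 relative to all tested genes. Their order depended on the copies. Over all 21 tested genes of the small class, copies included, the median was 0.22, or 0.39 relative to all tested genes, above that of the large class. The small class was split rather than shifted, with changes from -4.14 to 1.34, and the stages did not overlap in 13 of its 18 genes, 7 with MII below and 6 above. In the large class they did not overlap in 4 of 17, 3 with MII below and 1 above. Over all tested genes the stages did not overlap in 51.9%, with MII below in 32.1% and above in 19.8%. The summed level of the small class was 2416 to 3309 RPKM in GV and 2767 to 3321 RPKM in MII, and that of the large class 906 to 1070 RPKM in GV and 847 to 1014 RPKM in MII, so both ranges overlapped between stages.

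Coding length went along with the calls in the table as a whole. Among 973 tested genes with a coding length of up to 500 nt, 46.2% were lower and 9.46% higher, with a median log2 change of -0.84. Among 3493 with more than 1500 nt, 13.7% were lower and 16.8% higher, with a median of 0.15. Over the 42 members that have a coding model, 1 per symbol, Spearman's rho between coding length and change was 0.285, and it was 0.292 over 8469 genes. Both are descriptions across genes of the same 6 libraries. The part of length in the difference between the classes was not tested.

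**Figure D5:**
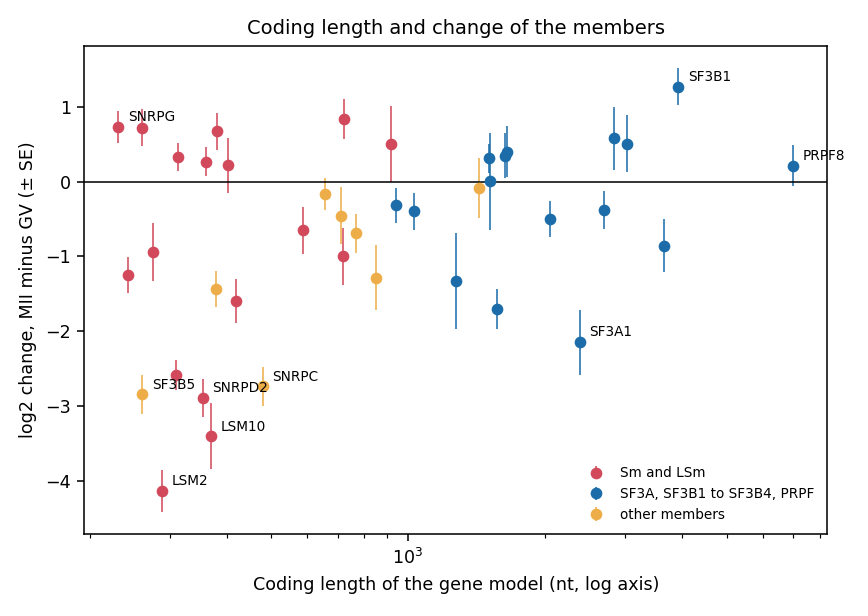
Log2 change from GV to MII (y axis, ± SE from limma) against the coding length of the gene model (x axis, nt, log scale) for 41 members, 1 gene per symbol, coloured by class. The genes under 500 nt that are drawn run from LSM2 at -4.14 to SNRPG at 0.73, and SF3B1, a longer gene, lies at 1.27. SNRPE, the largest rise of a member at 1.34, has no coding model and is not drawn.

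Other proteins of the spliceosome moved both ways. Of a list of further spliceosome genes, 75 were tested, of which 21 were lower and 14 higher (28.0% and 18.7%, against 26.9% and 13.4% of all tested genes), with a median log2 change of 0.08 against -0.16 for all genes. There were 12 lower and 5 higher without GV14, 12 and 6 without MII15c, 8 higher without MII14c, 13 and 2 without both libraries that match no title, 16 and 20 after quantile normalization, and 26 and 25 with library weights. SNRNP25, a protein of the minor spliceosome, was at 41.8, 34.2 and 36.8 RPKM in GV and between 0.633 and 1.78 RPKM in MII (change of -4.14 ± 0.30; limma adjusted p = 2.9e-05). BUD31, of the catalytic spliceosome, fell from 281 ± 48.5 to 41.2 ± 9.52 RPKM (± SD, 3 libraries each; -2.75 ± 0.24), and SYF2 and CTNNBL1, which associate with the PRPF19 complex, had log2 changes of -1.91 and -3.01. CDC5L, the core partner of PRPF19, rose from 164 ± 42.6 to 473 ± 51.1 RPKM (1.54 ± 0.23; limma adjusted p = 0.00106). CDC40, a second-step factor, rose from 20.1 ± 3.69 to 52.3 ± 2.77 RPKM (1.35 ± 0.23). SMNDC1, a U2-associated factor related to SMN, and PPIL4, a cyclophilin, rose by 0.99 and 1.21 on the log2 scale, and neither passed without both libraries that match no title (limma adjusted p = 0.0814 and 0.0658).

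Among the genes whose products load Sm proteins onto RNA and bring the particles back to the nucleus, 6 of 15 tested fell and 2 rose (40.0% and 13.3%, against 26.9% and 13.4% of all tested genes). There were 4 falls and no rise without both libraries that match no title. SNUPN, the import adaptor of finished snRNPs, was at 46.2, 56.5 and 63.1 RPKM in GV and 8.89, 2.82 and 4.58 RPKM in MII (log2 change of -3.23 ± 0.36, SE; limma adjusted p = 0.000213). PRMT5, the methyltransferase that modifies Sm tails, was at 30.6, 40.6 and 22.8 RPKM in GV and 7.29, 3.78 and 4.66 RPKM in MII (-2.37 ± 0.32; limma adjusted p = 0.000635). Both fell without overlap, as did GEMIN6 and DDX20 of the SMN complex (-2.00 and -0.98). PHAX, an export adaptor of new snRNA, rose from 60.04 ± 5.12 to 107 ± 10.4 RPKM (SD, n = 3; 0.82 ± 0.20; limma adjusted p = 0.01, and 0.0559 without MII15c in a range of 0.000257 to 0.117 over its alternatives). STRAP, a WD-repeat protein of the SMN complex, rose from 10.8 ± 2.90 to 24.3 ± 5.83 RPKM (1.11 ± 0.29; limma adjusted p = 0.0155, and 0.064 without GV14 in a range of 0.000664 to 0.0736 over its alternatives). SMN1 itself was at 59.0 to 63.1 RPKM in GV and 54.6 to 73.3 RPKM in MII and did not pass (0.03 ± 0.21; limma adjusted p = 0.909; named after its values were seen).

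The partners of the LSM1 ring in decapping were likewise mixed, with 2 of 8 tested genes lower and 2 higher, against 26.9% and 13.4% of all tested genes. DCP1A, a decapping activator, was at 4.66, 8.28 and 4.29 RPKM in GV and 21.9, 18.9 and 16.1 RPKM in MII (log2 change of 1.6 ± 0.31, SE; limma adjusted p = 0.00356). XRN1, the exonuclease that follows decapping, was at 11.7, 8.84 and 11.8 RPKM in GV and 44.7, 17.7 and 38.6 RPKM in MII (1.47 ± 0.35; limma adjusted p = 0.0101, and 0.0506 without MII15c in a range of 3.84e-05 to 0.115 over its alternatives). PATL2, an oocyte form of the scaffold that binds the LSM1 ring, was at 27.3, 25.5 and 17.8 RPKM in GV and 5.45, 0.891 and 4.09 RPKM in MII (-2.61 ± 0.45; limma adjusted p = 0.00221). None of these 3 overlapped between stages. EDC3 was at 24.0 ± 3.90 and 11.5 ± 7.31 RPKM (SD, n = 3; limma adjusted p = 0.0491), and its call was lost without GV14, GV14c, GV15, MII15 or MII15c (0.101, 0.127, 0.0859, 0.103 and 0.123).

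Of the 9 members below the level tested, 6 were copies. The 2 copies of SNRPD1 stayed between 0 and 0.539 RPKM, and the copy of SNRPN between 0 and 0.442 RPKM. The gene used for SNRPD1, with 4 coding exons on chromosome 24 from 34994180 to 35001448, was higher than its copies in every library.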

How the data were processed

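The authors deposited RPKM per gene for 6 libraries of single oocytes, per the file headers, and an annotation of coding and transcript coordinates extended by their reads. The submitters' processing notes name DESeq without its role; the sources used here do not name the aligner, counting tool, strand setting or genome build, and coordinates are those of that annotation, counted from 1. Depth was recovered as the smallest that made low RPKM of models without untranslated sequence whole: 86.6% to 93.0% of these values lay within 0.1 read. Genes averaging 1 RPKM or more were tested with limma 3.58.1 in R 4.3.3 (lmFit, eBayes with trend) on log2(RPKM + 1), stage as the only term, calling Benjamini-Hochberg adjusted p under 0.05. Fold changes on that scale understate low genes. A count model was not used on RPKM. Alternatives covered pseudocount, filter, scaling, weights, trend, replicate block, the letter c and left-out libraries. Members, roles and lists were chosen with earlier results of these data known. Named were the 7 ring proteins, in each role up to 4 falls and 4 rises of smallest adjusted p and the 2 most abundant without a call, and up to 4 per direction of each further list; other members are given for completeness. The values of 1 tested member are not reported here, though counts, medians and sums include it.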

Additional observations from a re-analysis of the deposited data

How the results depend on the processing

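Of the 17 calls among members, 11 held under every alternative run, 10 of them falls and 1 the rise of SF3B1. No call changed direction. Of the 29 members not called, 15 passed under at least 1 alternative, most of them with library weights (12 gained) or with the letter c as a term (9 gained). The count of members lower in MII, 12 as reported, was 19 with the letter c as a term and 11 to 15 when libraries were left out in turn. The count of members higher, 5 as reported, was 2 with no filter, 8 after quantile normalization, 13 with library weights, 3 without the trend, 2 without the libraries that match no title, and 1 to 5 when libraries were left out in turn. With the number 14 or 15 as a replicate block, 11 were lower and 4 higher, SNRPA and SNRPF losing their calls. Whether the numbers pair the libraries cannot be told from the deviations from the stage means. These correlated at 0.33 and 0.427 between libraries of the same number and letter, and at -0.00826 and -0.226 where only the number agreed. The correlations were 0.0667 and 0.261 where only the letter agreed, and -0.38, -0.409 and -0.0993 where neither did. They were thus positive wherever the letter agreed and negative wherever it did not. The letter c stands on GV14c alone in GV but on MII14c and MII15c in MII, so it is unevenly spread over the stages. The fit as reported holds no term for it. The median change of the small class was -0.65 with a mean of at least 5 RPKM, where fewer genes were tested, and that of the large class ran from -0.35 with that filter to 0.36 after quantile normalization, around 0.00 as reported. The causes of these shifts were not tested otherwise. Amplified reads without molecular identifiers make values of a few RPKM the least precise. Such are those of LSM4, SNRPA and LSM11, and the MII values of LSM2 and LSM10, on which their steep falls rest. Short models, such as the 288 and 369 coding nt of LSM2 and LSM10, hold fewer reads per RPKM than the 2 kb model given above.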
